A study of Homo sapiens with 6 samples.

Results

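Death receptors and the adaptors that carry their signal were followed at the RNA level through 8 genes: the receptors FAS, TNFRSF10A, TNFRSF10B, TNFRSF10D and TNFRSF1A, the adaptor FADD, the initiator protease CASP8 and its regulator CFLAR. They were found by symbol and are 8 of the 52088 genes of the count table. The group was chosen by the values of FAS, which lay on opposite sides of Control in the knockouts, so FAS is described here without a test. K562, a human leukaemia cell line of erythroid character grown in suspension in RPMI medium with fetal bovine serum, was the only cell line used. Control was K562 of the genotype that the labels call WT. PAX6_Ta KO and PBX3_Cl KO were K562 clones from which 1 ultraconserved element, a stretch of non-coding DNA almost unchanged between distant mammals, had been removed with a pair of Cas9 guides. The knockout cells had been transfected with the guide plasmid, selected with puromycin and grown from single cells. The labels do not state that Control went through these steps, so loss of an element and the making of a clone cannot be told apart in the comparisons with Control. When the knockouts are compared with each other, loss of an element and differences between clones cannot be told apart either. Nor do the sources say whether the 2 libraries of a group were grown or cloned apart, and each p-value therefore reflects how much libraries differed, which may be technical.

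Death receptors are surface proteins of the tumour necrosis factor receptor family with a death domain inside the cell. When ligand clusters FAS or the TRAIL receptors TNFRSF10A and TNFRSF10B, the adaptor FADD binds the death domain and draws in procaspase-8, the product of CASP8, which is activated by proximity and starts the proteolysis of apoptosis. CFLAR encodes c-FLIP, a relative of caspase-8 that takes its place in the complex and sets how much caspase-8 activity follows. TNFRSF10D is a TRAIL receptor with a truncated death domain that binds ligand without passing on the death signal. TNFRSF1A, the main receptor for TNF, first assembles a complex for survival signalling, and only a later complex holds FADD and caspase-8. K562 cells carry the BCR-ABL fusion kinase.

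The guides that made the knockouts are shown because they define the groups, in lower case with the protospacer-adjacent motif that Cas9 requires in capitals, from 5′ to 3′. All 4 matched 1 site each on the chromosome of their element in GRCh37. The PAX6_Ta guides lie at chr11:31809917-31809939 on the minus strand and chr11:31811316-31811338 on the plus strand, where exons of PAX6 and of ELP4 are annotated, with 1410 bases between the cuts. The PBX3_Cl guides lie at chr9:128456987-128457009 on the plus strand and chr9:128457970-128457992 on the minus strand, in an intron of MAPKAP1, with 972 bases between the cuts. No member lies on chromosome 9, and the only one on chromosome 11, FADD, starts 38.2 Mb from the PAX6_Ta cuts.
PAX6_Ta, U6 promoter: gctttctgtgcggttgtggaTGG
PAX6_Ta, H1 promoter: caagtccattccttccccagTGG
PBX3_Cl, U6 promoter: ctcagtactgcaaagactgtGGG
PBX3_Cl, H1 promoter: gcttgtacagttaagcatgaTGG

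The 6 libraries held between 45912044 and 60908470 counts, with replicates differing by more than sampling noise in each group. Levels are given in CPM, reads of a gene scaled to a common library size after TMM normalization. All 11 erythroid and K562 markers were above 1 CPM in every group, with summed levels of 5720 to 6730 CPM in Control, 9130 to 10700 CPM in PAX6_Ta KO and 7370 to 8810 CPM in PBX3_Cl KO. The summed lymphoid markers differed more, at 49.2 to 110 CPM in Control, 8.99 to 13 CPM in PAX6_Ta KO and 38 to 71 CPM in PBX3_Cl KO. Most of that sum was PTPRC, and MS4A1, which defines B cells, was at 0 in every library. The fibroblast list, carried by COL1A2, summed to 49.1 to 133 CPM in Control, 23.1 to 23.2 CPM in PAX6_Ta KO and 3.24 to 3.27 CPM in PBX3_Cl KO, with LUM at 0 throughout. COL1A1 of this list was instead highest in PAX6_Ta KO, at 4.66 and 3.93 CPM against 0.133 and 0.139 CPM in Control. COL3A1 was highest in PBX3_Cl KO, at 1.25 and 0.851 CPM against 0.0999 and 0.178 CPM in Control. The monocyte and granulocyte list stayed between 2.99 and 10.8 CPM in all libraries. The epithelial list, carried by keratins, summed to 722 to 959 CPM in Control, 1300 to 2020 CPM in PAX6_Ta KO and 653 to 1120 CPM in PBX3_Cl KO, with CDH1 at no more than 0.0437 CPM. EPCAM of the same list went the other way, at 42.3 and 45.5 CPM in Control, 3.66 and 2.13 CPM in PAX6_Ta KO and 26.8 and 21.9 CPM in PBX3_Cl KO.

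FAS, the receptor for Fas ligand, was nearly silent in Control, at 0 in PAX6_Ta KO and low but clearly counted in PBX3_Cl KO. Control held 4 and 7 FAS counts, or 0.0666 CPM (exact 95% Poisson interval 0.0182 to 0.171) and 0.139 CPM (0.0557 to 0.286). Neither PAX6_Ta KO library held a FAS count, with intervals of 0 to 0.0768 CPM in replicate 1 and 0 to 0.0701 CPM in replicate 2. The PBX3_Cl KO libraries held 84 and 45 counts, or 1.91 CPM (1.52 to 2.36) and 0.982 CPM (0.717 to 1.31). The levels of the 3 groups did not overlap, but the intervals of PAX6_Ta KO overlapped those of Control. PBX3_Cl KO stood alone in having more than a few FAS reads per library. With the 2 libraries at 0 set to a floor of 3 counts in all, 0.0298 CPM, FAS was at least 3.34-fold lower in PAX6_Ta KO than in Control and at least 48.2-fold lower than in PBX3_Cl KO. The summed FAS level of PBX3_Cl KO was 14.4-fold that of Control, which rests on 129 counts against 11. The intervals cover counting error only, and the 3.34-fold bound takes the 11 Control counts as exact. In log2 terms the bound of PAX6_Ta KO against Control was -1.74, and it shrank to -0.81 without replicate 1 of PAX6_Ta KO and to -0.67 without replicate 2. The difference of PBX3_Cl KO from Control was 3.85 on the same scale and 3.26 without replicate 1 of PBX3_Cl KO. The gene passed the filter on low counts only through PBX3_Cl KO, and in bulk RNA fewer cells with FAS and less FAS RNA per cell cannot be told apart.

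FAS is on chromosome 10 of GRCh37, from 90750414 to 90775542 on the plus strand, and 25.7% of its 3562 exon bases also belong to exons on the other strand. A non-coding RNA without a gene symbol shares 917 of them and is not in the count table. ACTA2, smooth muscle actin, shares 380. ACTA2 had 0 and 1 counts in Control, none in PAX6_Ta KO, and 9 and 13 in PBX3_Cl KO, the same group in which FAS was highest. How the counting treated strand is not stated in the sources used here, so which gene of the pair the shared reads came from cannot be told apart. The tested gene nearest to FAS on its right, LIPA, which encodes lysosomal acid lipase, moved differently. LIPA held 2 and 1 counts in Control, 40 and 34 in PAX6_Ta KO, and 1 and 3 in PBX3_Cl KO, so it was highest in the group without FAS reads (log2 fold change against Control 4.65, adjusted p = 0.00104 by edgeR's quasi-likelihood test with Benjamini-Hochberg adjustment). IFIT2, the next gene and one of the interferon-induced genes beside it, was higher in PAX6_Ta KO by 2.01 (edgeR adjusted p = 0.0338, but 0.275 without replicate 2 of Control and 0.171 without replicate 1 of PAX6_Ta KO) and had a log2 fold change of 1.63 in PBX3_Cl KO (edgeR adjusted p = 0.105). On the left, RNLS was the only tested neighbour within 1 Mb, at 0.997 in PAX6_Ta KO and -1.03 in PBX3_Cl KO (edgeR adjusted p = 0.663 and 0.764). The 9 tested neighbours had a median log2 fold change of 1.00 in PAX6_Ta KO, against -0.019 over all 20746 genes tested, and of -0.17 in PBX3_Cl KO, against -0.0089 over all. Of the 9, 4 rose and 0 fell in PAX6_Ta KO at an edgeR adjusted p below 0.05, where 7.21% and 4.21% of all genes did. In PBX3_Cl KO 1 rose and 0 fell, where 6.28% and 2.69% did. This was IFIT3, named after its values were seen (log2 fold change 1.58, edgeR adjusted p = 0.039), which also rose in PAX6_Ta KO (2.10, edgeR adjusted p = 0.00697). Its Control libraries differed, at 113 and 33 counts.

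**Figure D1:**
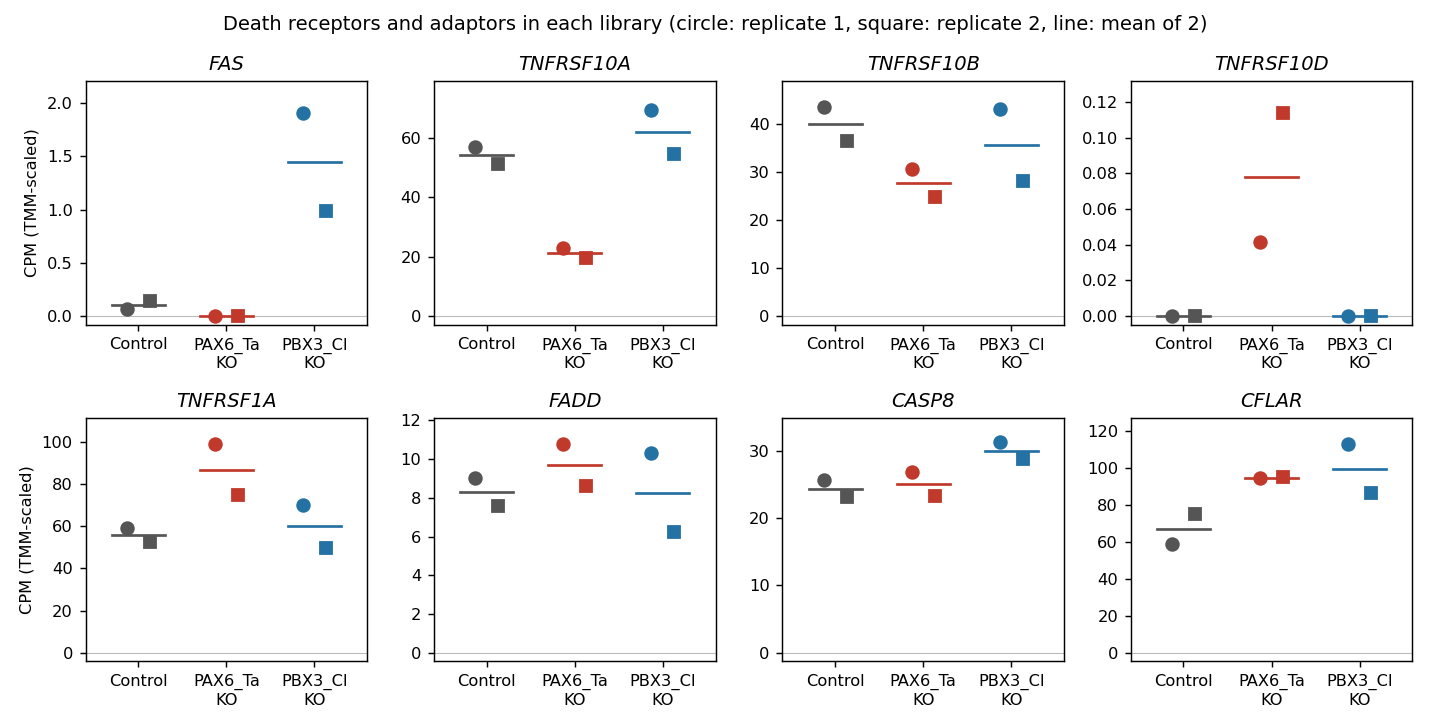
Level of each of the 8 genes in CPM after TMM scaling (vertical axis, linear, its range set for each gene) in Control, PAX6_Ta KO and PBX3_Cl KO, with replicate 1 as a circle, replicate 2 as a square and a line at their mean. FAS reaches 1.91 CPM in PBX3_Cl KO and 0 in PAX6_Ta KO, and TNFRSF10A is at 22.9 and 19.5 CPM in PAX6_Ta KO against 51.3 CPM or more in the other groups.

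Apart from FAS, and from TNFRSF10D, which was too low to test, 6 members were tested in the genome-wide edgeR fit. In PAX6_Ta KO against Control 0 of the 6 rose and 1 fell, where 7.21% of all tested genes rose and 4.21% fell. PBX3_Cl KO had 0 members that rose and 0 that fell against Control by edgeR, where 6.28% of all genes rose and 2.69% fell, with 1 member at an unadjusted p below 0.05 and 0 called by DESeq2. Between the knockouts 0 were higher and 1 was lower in PAX6_Ta KO, where 5.26% of all genes were higher and 6.71% lower. Among so few genes a single call exceeds these shares, so the counts describe no property of the group, and the genes are given one by one. With the replicate number as a block, 3 members passed in PAX6_Ta KO against Control and 2 between the knockouts. The median log2 fold change of the 6 was 0.13, 0.15 and -0.17 in the 3 comparisons, against -0.019, -0.0089 and -0.007 over all genes. In PAX6_Ta KO against Control 2 members were higher and 2 lower without overlap of libraries, where 27% and 28% of all genes were. For PBX3_Cl KO against Control 2 were higher and 0 lower, beside 23.5% and 20.6%. Between the knockouts 1 was higher and 2 lower in PAX6_Ta KO, beside 24.1% and 25.6%. Separation of the libraries alone therefore sets no gene below apart.

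TNFRSF10A, a TRAIL receptor able to signal death, was the member that changed. Its level was 57.1 and 51.3 CPM in Control (mean 54.2 ± 4.11, SD, n = 2), from 3429 and 2591 counts. In PAX6_Ta KO it was 22.9 and 19.5 CPM (mean 21.2 ± 2.41, SD, n = 2), from 1099 and 1025 counts. In PBX3_Cl KO it was 69.5 and 54.5 CPM (mean 62 ± 10.6, SD, n = 2). Both PAX6_Ta KO libraries lay below all the others, while Control and PBX3_Cl KO overlapped. TNFRSF10A fell by 1.36 on the log2 scale in PAX6_Ta KO against Control (SE 0.20, edgeR adjusted p = 8.38e-04), to 0.391 of the Control level. Against PBX3_Cl KO it was lower by a log2 fold change of -1.55 (SE 0.21, edgeR adjusted p = 3.28e-04), which is also the test that its response differed between the knockouts. The log2 fold change of PBX3_Cl KO against Control was 0.19 (SE 0.20, edgeR adjusted p = 0.707). The lymphoid marker sum was likewise lowest in PAX6_Ta KO, mostly through PTPRC at 2.25 and 0.912 CPM there, 101 and 41.7 CPM in Control and 63.3 and 33 CPM in PBX3_Cl KO, and its part in the result was not tested.

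TNFRSF10A (23047965 to 23082615), TNFRSF10D (22993101 to 23021540) and TNFRSF10B (22877646 to 22926544) lie side by side on the minus strand of chromosome 8 in GRCh37. The genes around them had a median below 0 in PAX6_Ta KO as well. Of the 35 tested neighbours within 1 Mb, 4 fell and 0 rose in PAX6_Ta KO against Control, with a median log2 fold change of -0.56 and 6 of 35 above 0. In PBX3_Cl KO 5 rose and 0 fell, with a median of 0.17, and between the knockouts 12 were lower and 0 higher in PAX6_Ta KO, with a median of -0.89 and 0 of 35 above 0. Of all tested genes, 4.21% fell and 7.21% rose in PAX6_Ta KO against Control, and 2.69% fell and 6.28% rose in PBX3_Cl KO. Between the knockouts 6.71% of all were lower and 5.26% higher in PAX6_Ta KO. The nearest genes on the right, CHMP7 and R3HCC1, had log2 fold changes of -0.60 and -0.62 in PAX6_Ta KO against Control (edgeR adjusted p = 0.0745 and 0.101). The nearest on the left, EGR3 and BIN3, stood at 1.33 and -0.18 (edgeR adjusted p = 0.207 and 0.731), and EGR3, an early growth response factor, was higher in PBX3_Cl KO by 2.57 (edgeR adjusted p = 0.0132, but 0.107 without replicate 2 of Control and 0.0612 without replicate 1 of PBX3_Cl KO). The antisense RNA TNFRSF10A-AS1, which shares 224 exon bases with TNFRSF10A, fell with it in PAX6_Ta KO, from 146 and 136 counts to 48 and 60 (log2 fold change -1.26, edgeR adjusted p = 0.0372). That call was lost when any 1 library of the 2 groups was left out, with adjusted p from 0.095 to 0.285. TNFRSF10A-DT, also on the other strand, shares 266 exon bases with TNFRSF10A. It held 571 and 501 counts in Control, 247 and 230 in PAX6_Ta KO and 697 and 453 in PBX3_Cl KO. In all 16.7% of the exon bases of TNFRSF10A are shared, and which gene the shared reads came from cannot be told apart. TNFRSF10A lay below most of its surroundings. As an alternative chosen after seeing the data, the neighbours' medians against Control, -0.56 and 0.17, were taken out as offsets of the knockouts. The log2 fold change of TNFRSF10A was then -0.79 against Control (SE 0.20, edgeR adjusted p = 0.0233) and -0.82 against PBX3_Cl KO (SE 0.20, edgeR adjusted p = 0.0192). Between the knockouts only the difference of these offsets was removed, which is smaller in size than the neighbours' median of -0.89 there. Over all alternatives of TNFRSF10A the adjusted p ranged from 8.19e-07 to 0.0233 against Control.

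The lower level extended beyond that window. Protein-coding genes of the first 20 Mb of chromosome 8 other than the members, 40 in number, had a median log2 fold change of -0.45 in PAX6_Ta KO against Control, and the 86 between 20 and 40 Mb, where the TRAIL receptor genes lie, had one of -0.51. Over the next 3 windows of 20 Mb, up to 100 Mb, the medians lay between -0.05 and 0.04. In the last 3 they were 0.44, 0.44 and 0.37, above 0. In PBX3_Cl KO all 8 windows had medians between -0.15 and 0.12. These medians were computed after the values of the TRAIL receptor genes had been seen, and their part in the TNFRSF10A result beyond the offset given above was not tested.

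**Figure D2:**
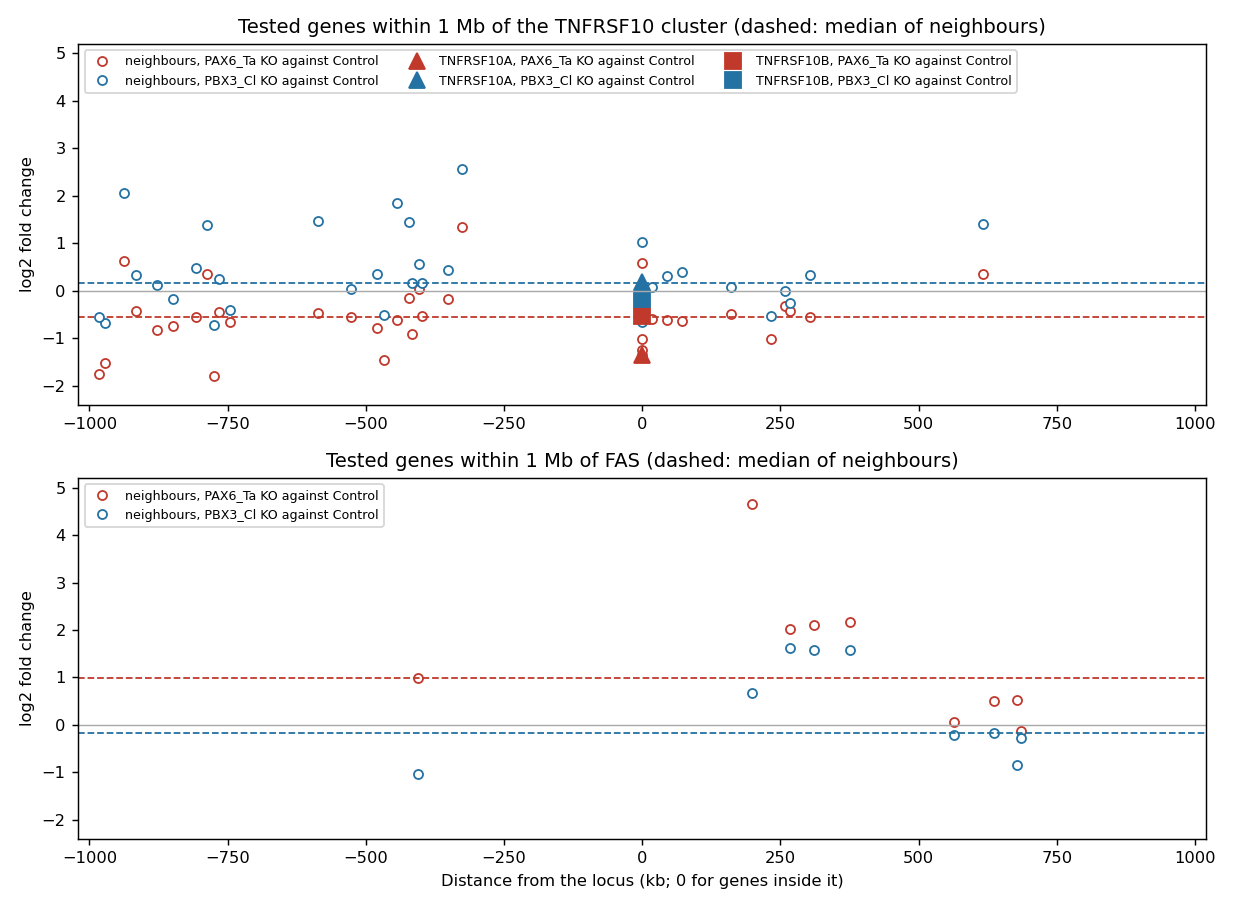
Log2 fold change (vertical axis) of tested genes against their distance in kb from the TNFRSF10 cluster (upper) or from FAS (lower), with 0 for genes inside the locus. Open circles are neighbours, red for PAX6_Ta KO and blue for PBX3_Cl KO, each against Control, dashed lines are their medians (-0.56 and 0.17 above, 1.00 and -0.17 below), and filled symbols are TNFRSF10A at -1.36 and 0.19 and TNFRSF10B at -0.53 and -0.17.

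TNFRSF10B, the other TRAIL receptor that signals death, had its lowest mean in PAX6_Ta KO but did not pass the test. It stood at 43.6 and 36.6 CPM in Control, 30.7 and 24.8 CPM in PAX6_Ta KO and 43.2 and 28.2 CPM in PBX3_Cl KO. Both PAX6_Ta KO libraries lay below both Control libraries, and the PBX3_Cl KO libraries overlapped both other groups. The log2 fold change was -0.53 in PAX6_Ta KO against Control (SE 0.24, edgeR adjusted p = 0.199). With the replicate block it was -0.53 with an edgeR adjusted p of 0.0477, the lowest over its alternatives, which reached 0.969. With the neighbours' median taken out the log2 fold change was 0.032. PBX3_Cl KO against Control gave -0.17 (SE 0.23, edgeR adjusted p = 0.798), and between the knockouts -0.36 (SE 0.24, edgeR adjusted p = 0.399). RHOBTB2 on the other strand shares 7.52% of the exon bases of TNFRSF10B, and which gene those reads came from cannot be told apart.

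The balance of the 2 signalling TRAIL receptors shifted within each library, a comparison that library size does not enter. TNFRSF10A had 1.31 and 1.4 counts for each count of TNFRSF10B in Control and 1.61 and 1.93 in PBX3_Cl KO. In PAX6_Ta KO the ratio was 0.746 and 0.784. So TNFRSF10A had the more counts in every library of Control and PBX3_Cl KO and the fewer in both of PAX6_Ta KO. Per kilobase of exon TNFRSF10A stayed the higher of the pair in every library, by 1.28 and 1.34 times in PAX6_Ta KO, 2.24 and 2.4 times in Control and 2.75 and 3.31 times in PBX3_Cl KO. Their summed level per kilobase was 28.2 and 24.8 CPM in Control, 13.9 and 11.6 CPM in PAX6_Ta KO and 32.3 and 24.3 CPM in PBX3_Cl KO.

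TNFRSF10D, the decoy among the TRAIL receptors, was found only in PAX6_Ta KO and only as a trace. It held 2 and 6 counts there, or 0.0416 CPM (exact 95% Poisson interval 0.00504 to 0.15) and 0.114 CPM (0.0418 to 0.248), and 0 in the Control and PBX3_Cl KO libraries. Over the group, a count of 0 allows up to 0.0271 CPM in Control and 0.0334 CPM in PBX3_Cl KO. Against those floors the level of PAX6_Ta KO was at least 2.93-fold higher than in Control and at least 2.38-fold higher than in PBX3_Cl KO. These bounds take the 8 counts of PAX6_Ta KO as exact. The intervals of both PAX6_Ta KO libraries overlapped those of Control, 0 to 0.0614 and 0 to 0.073 CPM, and those of PBX3_Cl KO, 0 to 0.0837 and 0 to 0.0805 CPM. The gene did not pass the filter on low counts and was not tested. TNFRSF10C, the decoy anchored without a cytoplasmic part, was as scarce, with 3 to 5 counts in every library.

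TNFRSF1A, the receptor for TNF, had its highest mean in PAX6_Ta KO, where TNFRSF10A and TNFRSF10B had their lowest. It stood at 59.2 and 52.7 CPM in Control (mean 55.9 ± 4.62, SD, n = 2), from 3553 and 2659 counts. In PAX6_Ta KO it was 98.8 and 74.9 CPM (mean 86.8 ± 16.9, SD, n = 2), from 4744 and 3944 counts. In PBX3_Cl KO it was 70.2 and 49.7 CPM (mean 59.9 ± 14.5, SD, n = 2). Both PAX6_Ta KO libraries lay above the other libraries, the lower one by a narrow margin, and the PBX3_Cl KO libraries lay on either side of Control. The log2 fold change was 0.63 in PAX6_Ta KO against Control (SE 0.22, edgeR adjusted p = 0.0972), which misses the threshold. With the replicate block it was 0.62 with an edgeR adjusted p of 0.0195, and without replicate 1 or replicate 2 of PBX3_Cl KO, which is neither of the groups compared, it was 0.64 and 0.63 with adjusted p of 0.0398 and 0.0379, within a range over all its alternatives of 0.0195 to 0.655. Between the knockouts it was 0.54 (SE 0.22, edgeR adjusted p = 0.158), 0.54 with an edgeR adjusted p of 0.0323 with the block and 0.85 with 0.0381 without replicate 1 of PBX3_Cl KO, in a range up to 0.696. For PBX3_Cl KO against Control it was 0.10 (SE 0.22, edgeR adjusted p = 0.892). The epithelial marker sum, carried by keratins, was also highest in PAX6_Ta KO, while EPCAM was lowest there, and their part in these values was not tested.

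TNFRSF1A lies on chromosome 12 of GRCh37, from 6437923 to 6451280 on the minus strand, and shares no exon bases with another gene. Its 52 tested neighbours had median log2 fold changes of -0.11 in PAX6_Ta KO and -0.089 in PBX3_Cl KO, near those of all genes. LTBR, the lymphotoxin receptor gene 32.9 kb to its right and of the same receptor family, stood at -0.50 in PAX6_Ta KO against Control (edgeR adjusted p = 0.125) and 0.083 in PBX3_Cl KO (edgeR adjusted p = 0.895). The nearer SCNN1A was at -0.51 and -1.04 (edgeR adjusted p = 0.785 and 0.565). On the left PLEKHG6 was at 0.45 and 0.14 and CD9 at 1.16 and -0.31, and neither passed in any comparison.

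FADD, the adaptor shared by these receptors, had the fewest counts of these 6 members and no called difference. It held 542 and 383 counts in Control, 519 and 454 in PAX6_Ta KO and 453 and 285 in PBX3_Cl KO. In CPM these were 9.03 and 7.58, 10.8 and 8.62, and 10.3 and 6.22, so all 3 groups overlapped. The log2 fold changes were 0.23 in PAX6_Ta KO against Control, -0.011 in PBX3_Cl KO against Control and 0.24 between the knockouts (SE 0.29 each, edgeR adjusted p = 0.748, 0.993 and 0.696). FADD lies on chromosome 11 of GRCh37, from 70049402 to 70053496 on the plus strand, and 59.2% of its exon bases are shared with an RNA on the other strand, which had 0 counts in every library. Of its 12 tested neighbours only CCND1, the gene of cyclin D1 580.2 kb to the left, was lower in PBX3_Cl KO (log2 fold change -2.14, edgeR adjusted p = 0.00389, and -1.33 without replicate 2 of Control, still called). The nearer LTO1, PPFIA1 and H2AZP4 did not pass in any comparison.

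CASP8, the gene of the initiator caspase, passed the test in no comparison. It held 1535 and 1168 counts in Control, 1285 and 1226 in PAX6_Ta KO and 1380 and 1314 in PBX3_Cl KO, or 25.6 and 23.1, 26.8 and 23.3, and 31.3 and 28.7 CPM. Both PBX3_Cl KO libraries lay above the other 4, by a small margin. The log2 fold change of PBX3_Cl KO against Control was 0.30 (SE 0.19, edgeR adjusted p = 0.473). That of PAX6_Ta KO against Control was 0.039 (SE 0.19, edgeR adjusted p = 0.951), and that between the knockouts was -0.26 (SE 0.19, edgeR adjusted p = 0.476).

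CFLAR, the gene of the caspase-8 regulator c-FLIP, was higher in the libraries of both knockouts than in those of Control, without passing the test. It stood at 59.1 and 74.9 CPM in Control (mean 67 ± 11.2, SD, n = 2), 94.6 and 95.1 CPM in PAX6_Ta KO (mean 94.9 ± 0.336, SD, n = 2) and 113 and 86.5 CPM in PBX3_Cl KO (mean 99.8 ± 18.9, SD, n = 2). The lowest knockout library, replicate 2 of PBX3_Cl KO, was still above the highest Control library. Of all genes, 27% in PAX6_Ta KO and 23.5% in PBX3_Cl KO lay above Control without overlap. The log2 fold change against Control was 0.50 in PAX6_Ta KO (SE 0.21, edgeR adjusted p = 0.165) and 0.57 in PBX3_Cl KO (SE 0.21, edgeR adjusted p = 0.124), from comparisons that share their Control libraries. Without replicate 2 of PBX3_Cl KO the latter was 0.76 with an edgeR adjusted p of 0.0393, in a range over its alternatives of 0.0393 to 0.588. Between the knockouts it was -0.073 (SE 0.21, edgeR adjusted p = 0.888).

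CFLAR (201980877 to 202041410) and CASP8 (202098166 to 202226559) lie beside each other on the plus strand of chromosome 2 in GRCh37. Their 31 tested neighbours had median log2 fold changes of -0.087 in PAX6_Ta KO and -0.006 in PBX3_Cl KO. TRAK2, which encodes a mitochondrial transport adaptor 15.4 kb to the right, was higher in PAX6_Ta KO by 0.84 (edgeR adjusted p = 0.0271, but 0.237 without replicate 2 of Control and 0.265 without replicate 1 of PAX6_Ta KO), and STRADB beyond it stood at 0.67 (edgeR adjusted p = 0.124). On the left NDUFB3 was at -0.092 and RPL23AP30 at 0.66, and neither passed. CFLAR-AS1, which shares 777 exon bases with CFLAR on the other strand, had 86 and 141 counts in Control, 137 and 208 in PAX6_Ta KO and 111 and 154 in PBX3_Cl KO, and which of them the shared reads came from cannot be told apart. The counts of CFLAR for each count of CASP8 were 2.31 and 3.24 in Control, 3.54 and 4.08 in PAX6_Ta KO and 3.62 and 3.01 in PBX3_Cl KO. Both PAX6_Ta KO libraries had more CFLAR for each CASP8 than either Control library, and those of PBX3_Cl KO overlapped Control.

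**Figure D3:**
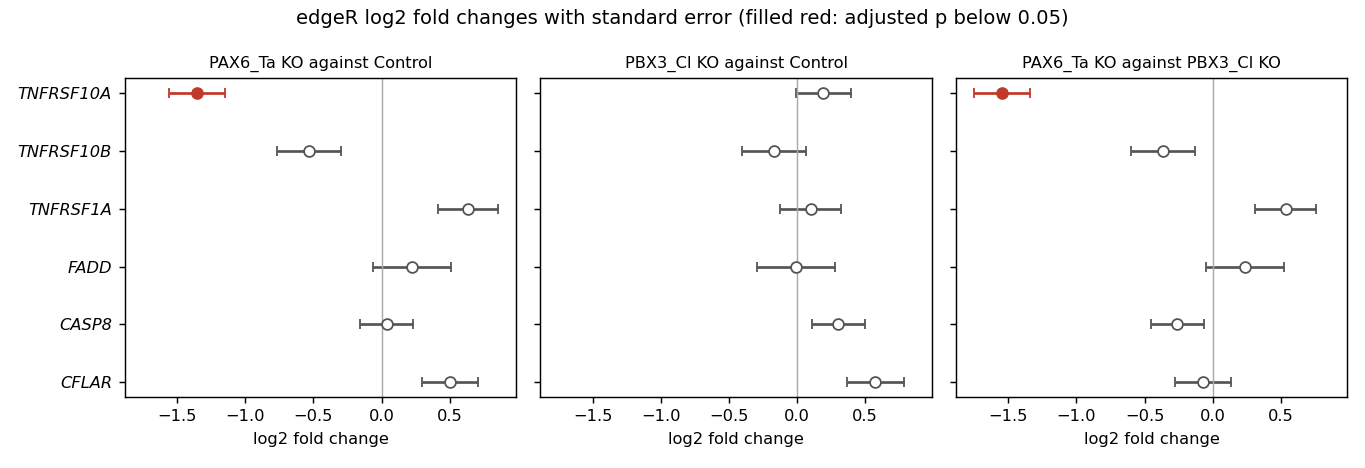
Log2 fold change (horizontal axis) of the 6 tested members other than FAS for each knockout against Control and for the knockouts against each other (PAX6_Ta KO against PBX3_Cl KO), with bars for the standard error of the edgeR fit and filled red points where the adjusted p was below 0.05. TNFRSF10A, at -1.36 and -1.55 in the comparisons with PAX6_Ta KO, is the filled point of each.

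Ordered by level per length, CPM for each kilobase of merged exons, TNFRSF10A led in Control at 18.5 (17.5 to 19.5 over the libraries), before TNFRSF1A at 13.3, TNFRSF10B at 8 and FADD at 4.86. CASP8 at 3.36 and CFLAR at 2.98 followed and overlapped each other, and FAS at 0.0288 and TNFRSF10D at 0 came last. The order changed at its top in PAX6_Ta KO. There TNFRSF1A led at 20.7, TNFRSF10A was at 7.23, FADD at 5.69 overlapped TNFRSF10B at 5.54, and CFLAR at 4.22 stood above CASP8 at 3.46. In PBX3_Cl KO TNFRSF10A at 21.2 and TNFRSF1A at 14.3 led again, TNFRSF10B at 7.12, FADD at 4.83, CFLAR at 4.44 and CASP8 at 4.14 each overlapped the next, and FAS was at 0.405. The ratio of TNFRSF1A to TNFRSF10A per length was 0.718 in Control, 2.85 in PAX6_Ta KO and 0.673 in PBX3_Cl KO. The order depends on the length used, and its first place does so because TNFRSF1A has long exon stretches outside its canonical transcript. With the length of the canonical transcript, chosen after seeing the data, TNFRSF1A led in every group, at ratios of 1.28, 5.08 and 1.2. CASP8 then stood above CFLAR in every group. The 2 genes were at 9.16 and 4.59 in Control, 9.41 and 6.49 in PAX6_Ta KO, and 11.3 and 6.83 in PBX3_Cl KO. In PAX6_Ta KO CASP8 also stood above TNFRSF10A, at 7.87 with that length.

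The genes most like FAS across the 6 libraries, by Pearson correlation of log2 CPM and as a description only, were PABPC4L (r = 0.997), SLC2A13 and MRI1 (r = 0.994 each), and FMNL2 and KLHDC10 (r = 0.992 each). PABPC4L was at 0.566 and 0.653 CPM in Control, 0.25 and 0.266 CPM in PAX6_Ta KO and 2.81 and 2.18 CPM in PBX3_Cl KO. SLC2A13, a myo-inositol transporter, was at 5.68 and 7.72, 2.69 and 2.77, and 23.7 and 17.7 CPM. FMNL2, a formin that builds actin filaments, was at 1.68 and 2.32, 0.833 and 1.08, and 7.1 and 6.33 CPM. Being chosen by this correlation, they had by selection the order of FAS, with PAX6_Ta KO lowest and PBX3_Cl KO highest. In all 12 genes exceeded r = 0.99. Those most like TNFRSF10A were GDA and ELOA (r = 0.998 each), TRNAU1AP and CLPTM1L (r = 0.997 each) and LPCAT2 (r = 0.996), among 45 above 0.99. GDA, guanine deaminase, was at 26.9 and 20.8 CPM in Control, 2.27 and 1.61 CPM in PAX6_Ta KO and 39.9 and 26.5 CPM in PBX3_Cl KO. The 6 points fall in 3 groups of 2, so these correlations follow the group means.

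Around the members stands a wider list of 66 genes of death receptor signalling, of which 65 were in the count table and 53 were tested. In PAX6_Ta KO against Control 3 of the 53 rose and 3 fell, in PBX3_Cl KO 6 rose and 2 fell, and between the knockouts 2 were higher and 11 lower in PAX6_Ta KO, beside the background shares given above. Their median log2 fold changes were -0.043, 0.07 and -0.11. With the replicate block 14 passed in PAX6_Ta KO against Control, and leaving out single libraries gave between 1 (without replicate 1 of PAX6_Ta KO) and 12 (without either replicate of PBX3_Cl KO). The count of PBX3_Cl KO against Control was 5 without replicate 2 of Control. Between the knockouts it was 5 without replicate 1 of PAX6_Ta KO and 3 without replicate 2.

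The ligands were scarce. TNFSF10, which encodes TRAIL, the ligand of TNFRSF10A and TNFRSF10B, held 7 and 0 counts in Control, 9 and 10 in PAX6_Ta KO and 46 and 43 in PBX3_Cl KO. Against Control it was higher in PBX3_Cl KO, with a log2 fold change of 3.95 (SE 0.76, edgeR adjusted p = 0.00564). This was 3.06 without replicate 2 of Control and 8.58 without replicate 1, where Control is left at 0 and the fitted size depends on the prior count, and the call held in both cases. Between the knockouts it was lower in PAX6_Ta KO, at -2.38 (SE 0.67, edgeR adjusted p = 0.0361), a call lost when any 1 library of either knockout was left out (adjusted p up to 0.112). In PAX6_Ta KO against Control it was 1.57 (edgeR adjusted p = 0.322), and 6.20 with an adjusted p of 0.0263 without replicate 1 of Control, which leaves Control at 0. FASLG, which encodes the ligand of FAS, held no more than 2 counts in any library and was not tested, and TNF held 22 and 9 counts in Control and at most 3 elsewhere. So the highest levels of FAS and of TNFSF10 stood in the same group, both below 2 CPM.

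Among adaptors and enzymes of the receptor complexes, 2 of 24 rose and 2 fell in PAX6_Ta KO, where 7.21% and 4.21% of all tested genes did. In PBX3_Cl KO 2 rose and 1 fell, where 6.28% and 2.69% of all did. Counts this small describe no property of the class. EDARADD, a death domain adaptor of the ectodysplasin receptor, rose in both, from 3 and 10 counts in Control to 38 and 35 in PAX6_Ta KO and 388 and 282 in PBX3_Cl KO (log2 fold changes 2.58 and 5.94, edgeR adjusted p = 0.00781 and 1.7e-05). The size rests on few Control counts, at 1.86 and 5.23 without replicate 1 of Control and 3.79 and 7.15 without replicate 2, and the calls held in both cases. TRAF6, a ubiquitin ligase of TNF-family and interleukin receptors, rose by 0.90 in PAX6_Ta KO and 1.07 in PBX3_Cl KO (edgeR adjusted p = 0.00985 and 0.00409). The first of these calls was lost when any 1 library of Control or PAX6_Ta KO was left out (adjusted p up to 0.0871). IKBKB, a kinase that activates NF-κB, fell by 0.92 on the log2 scale in PAX6_Ta KO (edgeR adjusted p = 0.00547), and OTULIN, a deubiquitinase of linear chains, fell by 0.63 (edgeR adjusted p = 0.0478). With either PAX6_Ta KO library left out both calls were lost, with adjusted p up to 0.079 and 0.349. That of OTULIN was lost as well without either Control library, without the filter on low counts, with RLE scaling and with DESeq2 (adjusted p 0.0586 with the last). TRAF5 fell by 1.22 in PBX3_Cl KO (edgeR adjusted p = 0.0105), but not without replicate 2 of Control (adjusted p 0.0737).

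Among the effectors downstream, DFFB, the nuclease that cuts DNA in apoptosis, fell by 1.03 in PAX6_Ta KO (edgeR adjusted p = 0.0048), with adjusted p of 0.0514 and 0.0597 without replicate 1 or 2 of PAX6_Ta KO. Of 9 tested modulators, DEDD and PEA15, both with a death effector domain like that of FADD, rose in PBX3_Cl KO by 0.96 and 1.22 (edgeR adjusted p = 0.011 and 0.00286), the former not without replicate 2 of Control (adjusted p 0.137). TNFRSF21, a further death receptor, was lower in PAX6_Ta KO when the knockouts were compared, at -1.09 (edgeR adjusted p = 0.00441, and 0.0962 without replicate 2 of PAX6_Ta KO). Against Control TNFRSF21 stood at 0.64 in PBX3_Cl KO (edgeR adjusted p = 0.0827, and 0.0317 with the replicate block, the lowest over alternatives that reached 0.432).

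**Figure D4:**
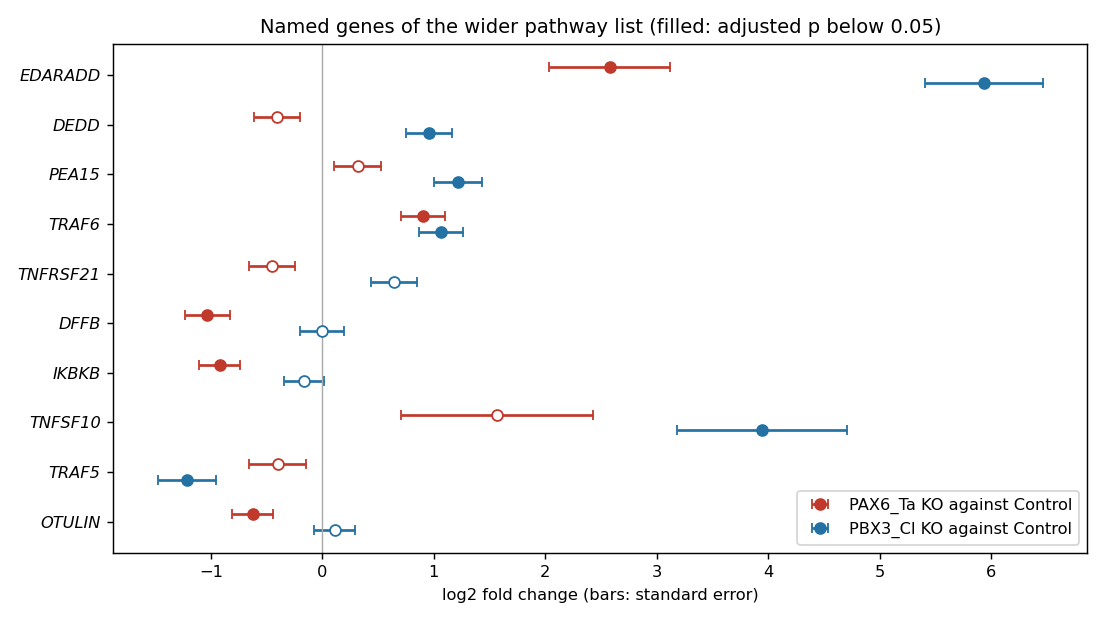
Log2 fold change against Control (horizontal axis) of 10 genes of the wider list, red for PAX6_Ta KO and blue for PBX3_Cl KO, with bars for the standard error and filled points where the edgeR adjusted p was below 0.05. EDARADD lies farthest right, at 2.58 and 5.94, and it and TRAF6 are filled in both knockouts.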

How the data were processed

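Stranded total RNA libraries (Collibri Stranded kit, NovaSeq), 2 for each of 3 groups, were grouped and numbered by their labels. The authors removed adaptors with Cutadapt (version 3.4), used STAR with GRCh37 as the genome and deposited a table of raw counts, 1 column a library, with nothing normalized. The version and strand setting of STAR are not given in these sources. Left out were 4 further columns that match no label, and the authors' own comparisons, deposited as log2 fold changes with p-values.

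In edgeR (version 4.0.16, R version 4.3.3), 20746 genes passed filterByExpr. After TMM scaling 1 quasi-likelihood fit of the 6 libraries gave the 3 comparisons, each adjusted by Benjamini-Hochberg over all tested genes and called below 0.05. The steps were tested on simulated data. Replicates of a group differed by a chi-square of 42 to 126 per degree of freedom. Across genes, the difference of replicate 1 from replicate 2 correlated at 0.389, 0.21 and 0.379 between pairs of groups. The labels do not say what the numbers mark, and these correlations do not establish that they pair libraries. The blocked value is therefore only an alternative, given where it changes a call. DESeq2 (version 1.42.0), other scalings and filters, and left-out libraries were alternatives.

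Positions and exon lengths came from GENCODE release 44 lifted to GRCh37, and guide sequences from the study's supplementary tables. Named were all members, the 12 listed pathway genes with the smallest adjusted p among those called (2 of them are not reported here), the 5 genes most like FAS and most like TNFRSF10A, and the 2 nearest tested neighbours on each side. Genes sharing exon bases with a member, and FASLG, TNF and TNFRSF10C, were added after their values were seen. Members, lists and tests were chosen with earlier results of these data known.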

Additional observations from a re-analysis of the deposited data

Results flagged for a closer look

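FAS and 9 named genes differed between the knockouts. FAS, untested because it was the reason for choosing the group, lay at or below -5.59 on the log2 scale in PAX6_Ta KO against PBX3_Cl KO, with every PBX3_Cl KO library above and every PAX6_Ta KO library below Control. The counting intervals of PAX6_Ta KO and Control overlapped. For the 9 named genes the difference passed edgeR's quasi-likelihood test over all genes. TNFRSF10A differed by -1.55, beside a median of -0.89 for its neighbours on chromosome 8. Of the wider list, EDARADD differed by -3.36, TNFSF10 by -2.38, DEDD by -1.36, TNFRSF21 by -1.09, DFFB by -1.03, PEA15 by -0.90, IKBKB by -0.76 and OTULIN by -0.74. These were lower in PAX6_Ta KO, but among the 5 called genes of the list outside the rule for names, 3 were lower, at -0.92 to -0.76, and FAIM (1.19, edgeR adjusted p = 0.0259) and BIRC3 (2.33, edgeR adjusted p = 0.039), named after their values were seen, were higher. Leaving out a library ended 6 of the 9 calls. Without replicate 1 or 2 of PAX6_Ta KO the edgeR adjusted p was 0.112 in each case for TNFSF10, 0.0501 and 0.0666 for DFFB, 0.174 and 0.151 for IKBKB, and 0.187 and 0.171 for OTULIN. Without replicate 2 alone it was 0.237 for PEA15 and 0.0962 for TNFRSF21. Without replicate 1 of PBX3_Cl KO it was 0.0582 for PEA15, 0.0539 for OTULIN and 0.0943 for TNFSF10, and without replicate 2 it was 0.0757 for TNFSF10. Groups of 2 libraries are too small for a check of single libraries that stand apart.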

How the results depend on the processing

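Members called numbered 1 in PAX6_Ta KO against Control, and 2 with only the 4 libraries compared, 3 with the replicate block and 1 to 2 with a library left out. For PBX3_Cl KO against Control they numbered 0, and 0 to 1 with a library left out. Between the knockouts they numbered 1, and 2 with the replicate block and 1 to 2 with a library left out. Pathway genes called numbered 6, 8 and 13 in these comparisons. In the first they were 12 with only the 4 libraries compared, 14 with the replicate block and 1 to 12 with a library left out, in the second 5 to 11 and in the third 3 to 14 with a library left out. With a library left out the FAS bound of PAX6_Ta KO ranged from -2.22 to -0.67 against Control and from -6.01 to -4.52 against PBX3_Cl KO, as a bound scales with the libraries it sums. With the canonical transcript the ratio of TNFRSF1A to TNFRSF10A per length was 1.28 (Control), 5.08 (PAX6_Ta KO) and 1.2 (PBX3_Cl KO). Of the values of single genes under alternatives, 583 kept direction and side of the threshold, 39 lost and 13 gained a call, and 15 changed sign, none of them a called difference. TNFRSF10B turned to 0.032 and 0.37 in the comparisons with PAX6_Ta KO when the neighbours' medians against Control were taken out. The other changes of sign came with a library left out. Of PAX6_Ta KO against Control, CASP8 then ranged from -0.069 to 0.14. Of PBX3_Cl KO against Control, TNFRSF10A ranged from -0.032 to 0.36, TNFRSF10B from -0.55 to 0.11, TNFRSF1A from -0.21 to 0.33, FADD from -0.46 to 0.31, DFFB from -0.14 to 0.094 and OTULIN from -0.049 to 0.23. Between the knockouts TNFRSF10B ranged from -0.65 to 0.017, FADD from -0.091 to 0.68 and CFLAR from -0.26 to 0.17. The causes were not tested. Among the named genes the replicate block changed the calls of TNFRSF10B, TNFRSF1A, TNFRSF21 and TRAF5 (between the knockouts, log2 fold change 0.81, edgeR adjusted p = 0.0313, lowest 0.0256 with DESeq2) and no other. A group left with 1 library is assumed to vary like the others. With 2 libraries a group, differences the size of those of FADD and CASP8 did not pass the test, FAS rests on single-digit counts outside PBX3_Cl KO, and TNFRSF10D on them in every library.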
